A study of Mus musculus with 8 samples.

Results

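Endogenous miRNAs of 3T3 mouse fibroblasts, an immortalised line, were compared by small RNA sequencing between cells transfected with U6-Lin28aIR (2 libraries) and cells transfected with CAG-EGFP-Lin28IR (2 libraries), all taken 48 h after transfection. The 4 libraries were chosen by their plasmid from the 8 of the study, whose other 4 came from cells given U6-MosIR or CAG-EGFP-MosIR, and every well of all groups therefore received a plasmid that expresses a double-stranded hairpin RNA. In U6-Lin28aIR, RNA polymerase III transcribes a Lin28a hairpin that has minimal single-stranded overhangs, whereas in CAG-EGFP-Lin28IR the strong ubiquitous CAG promoter drives an EGFP reporter whose transcript carries a longer Lin28 hairpin with long overhangs, so promoter, reporter and hairpin form cannot be told apart here. The libraries came from separately transfected wells of 1 cell line, so the p-values measure the spread between wells, and no untransfected cells or cells with an empty plasmid were analysed here. The counts describe endogenous miRNAs: 1966 mature names are listed, and 360 passed the filter on low counts and were tested.

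A mature miRNA is cut from a hairpin precursor by Drosha and Dicer and guides an Argonaute protein to transcripts that pair with its seed, the bases 2 to 8 from the 5′ end. Dicer also cuts long double-stranded RNA into siRNAs of 21–23 nt, and both kinds of small RNA use the same Argonaute proteins. Lin28 proteins, from whose mRNAs the hairpin sequences were taken, are known for blocking the maturation of the let-7 miRNAs in stem cells and are largely absent from differentiated fibroblasts. Several loci listed as miRNAs lie inside small nucleolar RNA (snoRNA) genes, whose products guide modification of ribosomal RNA and do not need Drosha for their own maturation.

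The miRNAs on which the comparison turns are shown here as mature sequences of RefSeq (GRCm38.p6), with the seed in capitals. A sequence was matched for 313 of the 360 tested names. The first set holds the 6 largest falls among miRNAs with a mean of at least 10 RPM (reads per 1000000 mapped reads), of which miR-3535 and miR-5126 passed the test.
miR-3535: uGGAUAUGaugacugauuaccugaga
miR-5126: gCGGGCGGggccgggggcgggg
miR-5121: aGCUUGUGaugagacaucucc
miR-374b-5p: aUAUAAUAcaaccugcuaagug
miR-125a-5p: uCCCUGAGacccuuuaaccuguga
miR-1291: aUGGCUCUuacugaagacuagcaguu
The second set holds the 6 largest rises, none of which passed the test on the same scale.
miR-27a-5p: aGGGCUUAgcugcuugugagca
miR-671-5p: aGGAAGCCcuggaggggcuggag
miR-183-3p: gUGAAUUAccgaagggccauaa
miR-362-5p: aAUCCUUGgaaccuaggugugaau
miR-146b-5p: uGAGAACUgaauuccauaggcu
miR-497a-5p: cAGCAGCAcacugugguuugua
The third set holds miRNAs of high abundance, together with the let-7 members at both ends of their family's range.
miR-21a-5p: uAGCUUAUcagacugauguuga
miR-26a-5p: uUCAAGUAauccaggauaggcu
let-7f-5p: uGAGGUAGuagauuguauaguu
let-7a-5p: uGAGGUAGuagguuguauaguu
let-7b-5p: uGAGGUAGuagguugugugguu
miR-98-5p: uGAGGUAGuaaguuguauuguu

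Endogenous miRNAs took a larger part of the U6-Lin28aIR libraries than of the CAG-EGFP-Lin28IR libraries. Counts on mature miRNAs came to 18.8% and 22.1% of the perfectly mapped reads with U6-Lin28aIR, against 13.6% and 10.9% with CAG-EGFP-Lin28IR, a ratio of means of 1.67. Both U6-Lin28aIR libraries lay above both CAG-EGFP-Lin28IR libraries. Reads of 21–23 nt made up 15.6% and 18.01% of the reads with U6-Lin28aIR and 12.3% and 9.88% with CAG-EGFP-Lin28IR. The wider class of 18–30-nt reads made up 26.5% and 29.7% with U6-Lin28aIR and 24.3% and 19.3% with CAG-EGFP-Lin28IR, again without overlap of the plasmids. Reads of 18–30 nt outside the 21–23-nt class did not separate the plasmids, at 10.9% and 11.7% with U6-Lin28aIR against 11.98% and 9.40% with CAG-EGFP-Lin28IR. With 2 libraries against 2 the smallest two-sided p of an exact permutation test is 0.333, so these shares are given without a test. The plasmids did not differ in depth beyond their spread, with 12898619 and 15098888 perfectly mapped reads for U6-Lin28aIR and 14043621 and 15929022 for CAG-EGFP-Lin28IR, and 3 counts correspond to 0.188 to 0.233 RPM.

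**Figure D1:**
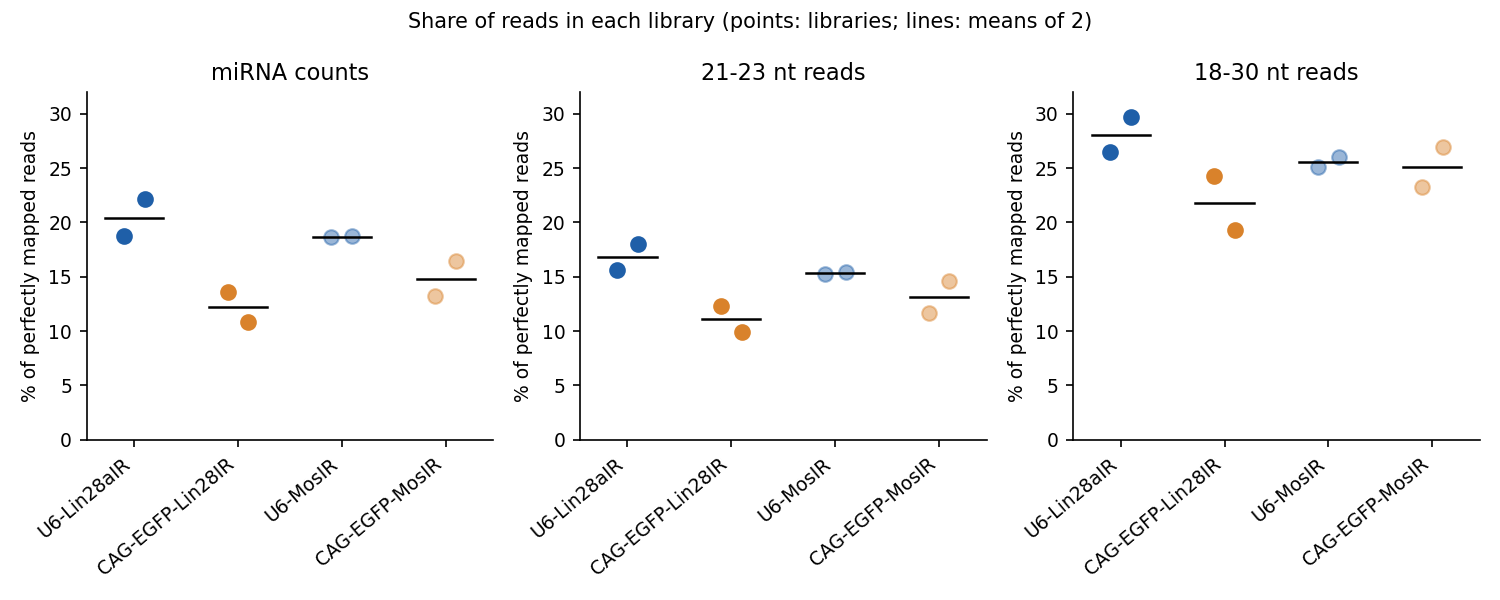
Numbers of miRNA counts, of 21–23-nt reads and of 18–30-nt reads in % of the perfectly mapped reads (y axis), with a point for each library, a line at the mean of 2 libraries and the plasmid on the x axis. For miRNA counts this is a ratio, since a read can be counted under several names. The U6-Lin28aIR points lie above the CAG-EGFP-Lin28IR points in all 3 panels, while for the Mos plasmids, drawn paler, the 18–30-nt shares overlap.

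The makeup of the short reads differed as well. For each 100 reads of 18–30 nt there were 58.9 and 60.6 reads of 21–23 nt with U6-Lin28aIR, against 50.7 and 51.2 with CAG-EGFP-Lin28IR. The difference of 8.80 points exceeded the SDs of 1.22 for U6-Lin28aIR and 0.397 for CAG-EGFP-Lin28IR (n = 2 each). The Mos plasmids, in other libraries, gave 60.2 ± 1.04 with U6-MosIR and 52.2 ± 2.94 with CAG-EGFP-MosIR (SD, n = 2 each). For each 100 reads of 18–30 nt there were 72.7 ± 2.53 miRNA counts with U6-Lin28aIR and 56.1 ± 0.412 with CAG-EGFP-Lin28IR (SD, n = 2 each). This last value and the percentages of miRNA counts above are ratios and not true shares of reads. A read can be counted under several miRNA names, and the length of the counted reads is not given. The short-read totals include whatever siRNAs the hairpins gave rise to, whose part in them was not tested. A share of a library also cannot tell more miRNA per cell from less of the other small RNAs.

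The difference was shared by most of the miRNAs tested. RPM values were computed as counts without mismatches per 1000000 perfectly mapped reads of all lengths, the scale the study uses, and on this scale the median log2 fold change of U6-Lin28aIR over CAG-EGFP-Lin28IR was 0.75, a factor of 1.68. Of the 360 miRNAs tested, 284 (78.9%) had a higher RPM in both U6-Lin28aIR libraries than in either CAG-EGFP-Lin28IR library and 4 (1.11%) had a lower one. In edgeR's quasi-likelihood test with the perfectly mapped reads as library size, 203 of 360 (56.4%) rose and 1 (0.278%) fell at an adjusted p below 0.05. Among the 184 miRNAs with a mean of at least 10 RPM, 141 rose, 1 fell, and log2 fold changes lay between −0.83 and 1.23. Only miR-3535, miR-5126 and miR-5121 of these 184 had a log2 fold change below 0 on this scale. The rise was also seen between single libraries, where the median log2 ratio over the 184 miRNAs was 0.50, 0.75, 0.71 and 0.98 in the 4 pairings of a U6-Lin28aIR with a CAG-EGFP-Lin28IR library. Replicate 1 over replicate 2 gave −0.21 within U6-Lin28aIR and 0.28 within CAG-EGFP-Lin28IR. The size of the RPM rise therefore varied with the library, and the lowest of the 4 pairings lay above the spread within either plasmid.

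**Figure D2:**
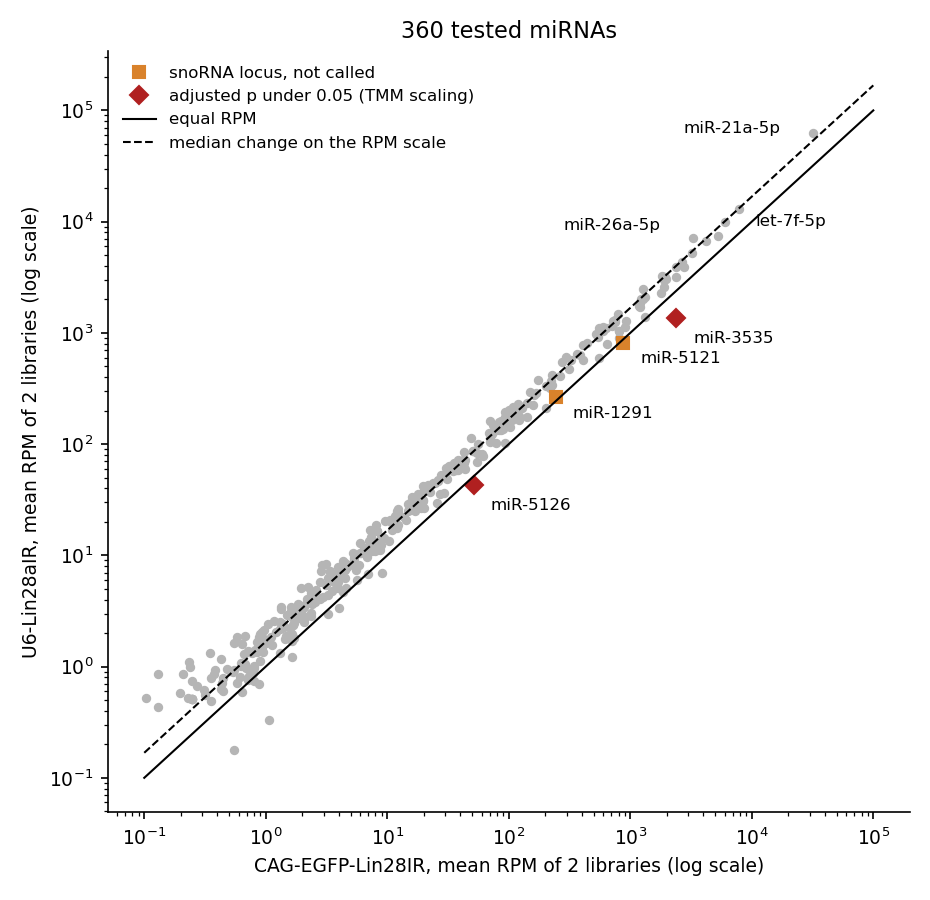
Mean RPM of 2 libraries with U6-Lin28aIR (y axis, log scale) against CAG-EGFP-Lin28IR (x axis, log scale) for the 360 miRNAs tested, with a solid line at equal RPM and a dashed line at the median rise of 1.68 times. Most points follow the dashed line over the whole range. Of the miRNAs with a mean of at least 10 RPM only miR-3535, miR-5126 and miR-5121 lie below the solid line, and some rarer miRNAs do as well.

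When the common rise was taken out, little remained. TMM, edgeR's default scaling, sets the bulk of the miRNAs to no change, so that a log2 fold change on this scale is a change relative to the other miRNAs. The median log2 fold change was then 0.00, 174 of the 184 miRNAs at 10 RPM or more (94.6%) stayed within 0.5 of 0, and the quartiles were −0.15 and 0.16. In the test, 0 of 360 miRNAs (0.0%) rose and 2 (0.556%) fell, while 7 rises and 21 falls had an unadjusted p below 0.05. DESeq2 also called 0 rises and 2 falls, and they were the same 2 miRNAs. With the 18–30-nt reads as library size, a scale between the others, 6 of 357 rose and 1 fell. The number of falls with TMM also depended on which libraries entered the fit. It was 7 without U6-Lin28aIR replicate 1, 3 without U6-Lin28aIR replicate 2 and 1 without one or the other CAG-EGFP-Lin28IR replicate. It also changed with any of the 4 Mos libraries left out, since these enter the filter on low counts, the TMM scaling and the estimate of the spread. With a library left out, 385 to 392 miRNAs were tested instead of 360. The call of miR-3535 was kept in each of these 8 fits, and 0 miRNAs rose in any of them.

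The stronger of the falls was that of miR-3535. It lies at chr1:86352062-86352087 on the minus strand, inside the snoRNA gene Gm24148 in an intron of Ncl, the gene of the nucleolar protein nucleolin, and the listed sequence has 26 nt, longer than the 22 nt of most mature miRNAs. Its level was 935 and 1759 RPM with U6-Lin28aIR, against 2501 and 2294 RPM with CAG-EGFP-Lin28IR. The plasmids did not overlap, and the U6-Lin28aIR replicates differed more from each other than the CAG-EGFP-Lin28IR replicates did. The log2 fold change was −1.60 with TMM (SE 0.24, adjusted p = 0.000577) and −0.83 on the RPM scale (SE 0.28, adjusted p = 0.0134, edgeR), so miR-3535 fell on both. With U6-MosIR it had 1492 and 1290 RPM and with CAG-EGFP-MosIR 1674 and 1991 RPM, without overlap, at a log2 fold change of −0.65 that did not pass the test (SE 0.24, adjusted p = 0.531). The difference between the hairpins in this contrast, −0.96, did not pass either (SE 0.34, adjusted p = 0.994).

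The other fall was that of miR-5126, which lies at chr1:84695890-84695911 on the plus strand, opposite an exon of Dner, a neuronal transmembrane ligand of Notch, and whose listed bases are all G or C. It had 46.1 and 39.5 RPM with U6-Lin28aIR, against 50.4 and 52.4 RPM with CAG-EGFP-Lin28IR. The groups did not overlap but lay close together, and its log2 fold change of −1.01 with TMM (SE 0.20, adjusted p = 0.0117) became −0.26 on the RPM scale, where it did not pass the test (adjusted p = 0.331). What was called is thus mainly that miR-5126 did not share the rise of the other miRNAs. It also lost the call with U6-Lin28aIR replicate 2, CAG-EGFP-Lin28IR replicate 1 or CAG-EGFP-Lin28IR replicate 2 left out, at log2 fold changes of −0.82, −1.19 and −0.86 relative to the median. The Mos plasmids gave a log2 fold change of −0.92 with TMM (SE 0.20, adjusted p = 0.0633).

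A further pair of the 6 lowest log2 fold changes belonged to snoRNA-locus miRNAs. The miRNA miR-5121 lies at chr7:45126925-45126945, inside Snord33 and the ribosomal protein gene Rpl13a, and had 883 and 753 RPM with U6-Lin28aIR against 853 and 905 RPM with CAG-EGFP-Lin28IR. For miR-1291, at chr15:98519828-98519853 inside Snora34 and an intron of Kansl2, the values were 302 and 226 RPM with U6-Lin28aIR against 308 and 183 RPM with CAG-EGFP-Lin28IR. The plasmids overlapped for both, and their log2 fold changes with TMM were −0.84 (SE 0.25, adjusted p = 0.205) and −0.61 (SE 0.23, adjusted p = 0.372). The fall of miR-5121 passed the test without any one of 5 libraries, U6-Lin28aIR replicate 1 and each of the 4 Mos libraries, and not without the other 3. That of miR-1291 passed without U6-Lin28aIR replicate 1 and without one or the other CAG-EGFP-MosIR replicate. Of the 4 miRNAs at snoRNA or small Cajal body RNA loci with at least 10 RPM, these and miR-3535 were among the 6 lowest of the 184. The fourth, miR-1839-5p, behaved otherwise, with 66.1 and 77.5 RPM with U6-Lin28aIR, against 45.6 and 38.7 RPM with CAG-EGFP-Lin28IR, and a log2 fold change of 0.02 with TMM (SE 0.20). The 12 miRNAs at such loci below 10 RPM had a median of −0.03, beside a median of 0.01 for the 344 miRNAs at other loci. The lowest of these 12, named after their values were seen, were miR-677-5p and miR-677-3p at −1.18 and −1.13, and neither passed the test.

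After miR-5126, the lowest log2 fold changes with TMM outside the snoRNA loci among the 184 miRNAs were those of miR-374b-5p and miR-125a-5p. Neither passed the test in the fit of all 8 libraries. In the 4 Lin28 libraries alone miR-125a-5p passed it and miR-374b-5p did not. For both, the outcome also changed in some of the fits with a library left out. The miRNA miR-374b-5p, from an intron of the noncoding gene Ftx, had 154 and 268 RPM with U6-Lin28aIR and 242 and 160 RPM with CAG-EGFP-Lin28IR. Its replicates lay farther apart than its plasmids (log2 fold change −0.69, SE 0.23, adjusted p = 0.269). The lin-4 homologue miR-125a-5p had 1477 and 1287 RPM with U6-Lin28aIR against 1465 and 1182 RPM with CAG-EGFP-Lin28IR, a log2 fold change of −0.67 (SE 0.22, adjusted p = 0.269). The miRNA with the same seed, miR-125b-5p, rose on the RPM scale like most others, at 6631 and 6729 RPM with U6-Lin28aIR against 4363 and 3972 RPM with CAG-EGFP-Lin28IR. Its log2 fold change with TMM was −0.06 (SE 0.23). Of the miRNAs listed near miR-125a on chromosome 17, let-7e-5p had −0.41 and miR-99b-5p −0.24 on the TMM scale. The median of the 5 mature forms there at 10 RPM or more was −0.41. This was the lowest of the 19 groups of at least 3 miRNAs at that level that lie within 10 kb of each other. The other arm let-7e-3p, tested but below 10 RPM, had −0.04 and is not in the group.

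**Figure D3:**
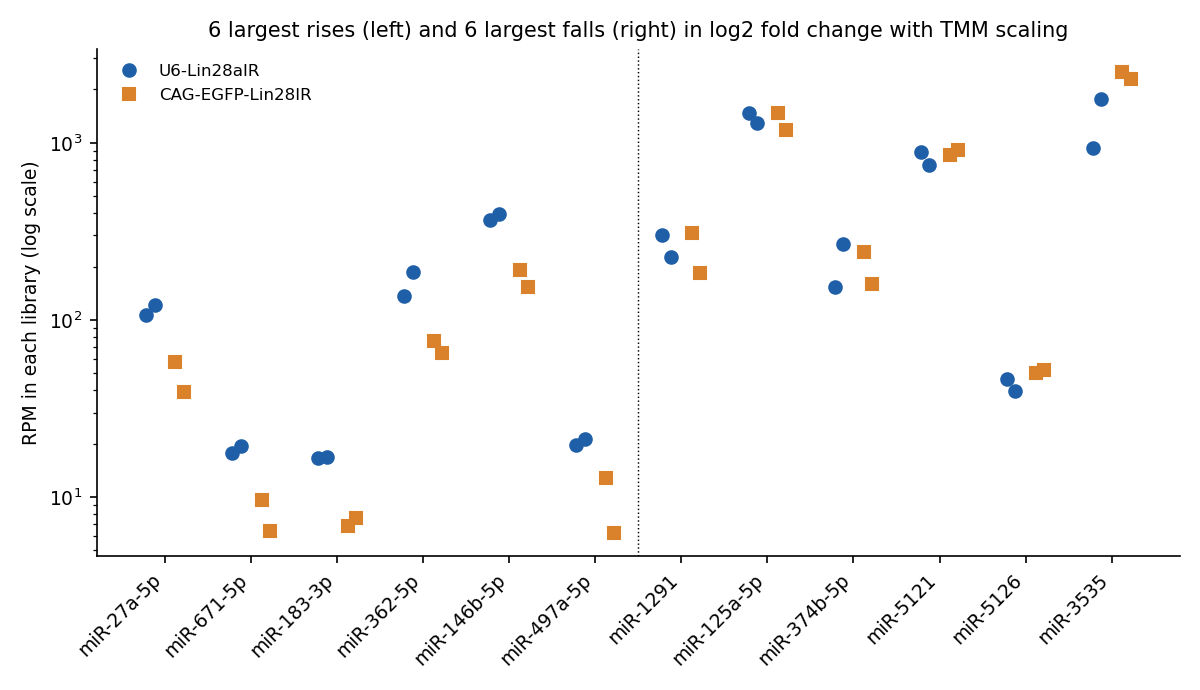
RPM in each library (y axis, log scale) of the 6 miRNAs with the largest rises and the 6 with the largest falls on the TMM scale among those at 10 RPM or more, with U6-Lin28aIR as circles and CAG-EGFP-Lin28IR as squares. All 6 rises are separated by plasmid, as are 165 of the 184 miRNAs at 10 RPM or more in that direction, whereas of the falls only miR-3535 and miR-5126 are.

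The largest rises were small. The leading one, miR-27a-5p, is the minor arm of a precursor whose main product is miR-27a-3p. It had 106 and 121 RPM with U6-Lin28aIR, against 57.9 and 39.0 RPM with CAG-EGFP-Lin28IR. Its log2 fold change was 0.49 with TMM (SE 0.22, adjusted p = 0.496) and 1.23 on the RPM scale (adjusted p = 0.000779). The miRNA miR-146b-5p belongs to the interferon and NF-κB list described below. It had 364 and 395 RPM with U6-Lin28aIR against 192 and 154 RPM with CAG-EGFP-Lin28IR, a log2 fold change of 0.39 with TMM (SE 0.20, adjusted p = 0.649). For miR-362-5p, from a cluster on chromosome X, the levels were 137 and 186 RPM with U6-Lin28aIR and 76.0 and 65.0 RPM with CAG-EGFP-Lin28IR, at 0.44 with TMM (SE 0.19, adjusted p = 0.477). The remaining rises were of miR-671-5p, known for directing the cleavage of the circular RNA Cdr1as, of miR-183-3p and of miR-497a-5p, which has the seed of miR-15 and miR-16. These had means of 18.7, 16.7 and 20.4 RPM with U6-Lin28aIR against 8.04, 7.25 and 9.51 RPM with CAG-EGFP-Lin28IR. All 6 rose past the threshold on the RPM scale, as did 141 of the 184 miRNAs at 10 RPM or more and 56.4% of all miRNAs, and none with TMM. As they were picked for the largest rises, passing on the RPM scale says nothing further about them.

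The 10 most abundant miRNAs made up 60.1% and 61.5% of the miRNA counts with U6-Lin28aIR, against 57.7% and 55.8% with CAG-EGFP-Lin28IR. The largest single part was that of miR-21a-5p, a miRNA that cultured and activated fibroblasts express strongly, at 57176 and 68689 RPM with U6-Lin28aIR against 35100 and 28279 RPM with CAG-EGFP-Lin28IR. Its part of the miRNA counts was 30.7% ± 0.422 with U6-Lin28aIR and 25.9% ± 0.0920 with CAG-EGFP-Lin28IR (SD, n = 2 each), without overlap. In the test its log2 fold change of 0.24 with TMM did not pass (adjusted p = 0.901), and 2 SE on either side ran from −0.24 to 0.73. Also among the 10, miR-26a-5p, a widely expressed regulator of the cell cycle and differentiation, had 6538 and 7590 RPM with U6-Lin28aIR against 3454 and 3095 RPM with CAG-EGFP-Lin28IR, the widest RPM ratio of the 10 at 2.16. Its log2 fold change was 0.36 with TMM (SE 0.22, adjusted p = 0.805). The remaining 8, which include miR-31-5p, miR-29a-3p and miR-30e-5p, had log2 fold changes between −0.25 and 0.01 with TMM. Each was higher in both U6-Lin28aIR libraries than in either CAG-EGFP-Lin28IR library on the RPM scale, as were 165 of the 184 miRNAs at 10 RPM or more.

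The let-7 guide strands, which repress growth and stem cell genes such as Lin28 itself, are represented by 9 tested members of the let-7 and miR-98 list. Together they summed to 33167 and 39101 RPM with U6-Lin28aIR, against 27772 and 20372 RPM with CAG-EGFP-Lin28IR. Their part of all miRNA counts was 17.7% with U6-Lin28aIR and 19.6% with CAG-EGFP-Lin28IR. Their median log2 fold change with TMM was −0.25, beside 0.00 for all miRNAs, 8 of the 9 were below 0, and 0 passed the test in either direction. Between the Mos plasmids the median of the same 9 was 0.03 with TMM. The difference between the hairpins passed the test for none of them. On the RPM scale 3 of the 9 rose past the threshold between the Lin28 plasmids, let-7f-5p, let-7g-5p and miR-98-5p. Beside them, 141 of the 184 miRNAs at 10 RPM or more and 56.4% of all miRNAs rose.

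The members, which share a seed, differed among themselves. The highest log2 fold change with TMM was 0.02 for miR-98-5p, singled out after its values were seen. Close to it, let-7f-5p had 11382 and 14560 RPM with U6-Lin28aIR, against 9015 and 6600 RPM with CAG-EGFP-Lin28IR, a log2 fold change of −0.01 with TMM (SE 0.27). The paralogue let-7a-5p had 7259 and 7465 RPM with U6-Lin28aIR against 6080 and 4445 RPM with CAG-EGFP-Lin28IR, at −0.25 (SE 0.26). At the bottom, let-7b-5p, likewise singled out, had 723 and 466 RPM with U6-Lin28aIR against 669 and 430 RPM with CAG-EGFP-Lin28IR. For let-7b-5p the groups overlapped and replicate 1 was the higher in both, and the log2 fold change was −0.59 (SE 0.25, adjusted p = 0.477). It passed the test without U6-Lin28aIR replicate 1 and without one or the other CAG-EGFP-MosIR replicate. By base composition let-7b-5p is the richest of the 9 in G and C, at 45.5%, and let-7f-5p and miR-98-5p, which have the 2 highest log2 fold changes of the family, the poorest, at 31.8%. Over the 165 miRNAs at 10 RPM or more with a sequence, G and C content and the log2 fold change had a Spearman's rho of only −0.12 in this comparison, and of −0.51 in that of U6-MosIR with CAG-EGFP-MosIR. These are descriptions across miRNAs of the same libraries, which are not independent replicates.

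The 11 tested passenger strands of the family had a median log2 fold change of −0.03 with TMM, beside −0.25 for the guides and 0.00 for all miRNAs, and 0 were called. Members of both lists overlapped, and the difference between the lists was not tested. Of these, let-7d-3p had 104 and 99.3 RPM with U6-Lin28aIR against 86.5 and 70.5 RPM with CAG-EGFP-Lin28IR, and the log2 fold change was −0.37 with TMM (SE 0.20, adjusted p = 0.728). The entries let-7a-1-3p and let-7c-2-3p have the same bases and near-equal values in each library, 86.5 and 86.1 RPM in U6-Lin28aIR replicate 1 for example, so they represent 1 set of reads. Their log2 fold changes were 0.02 and 0.01 with TMM. For let-7i-3p the log2 fold change was −0.12.

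**Figure D4:**
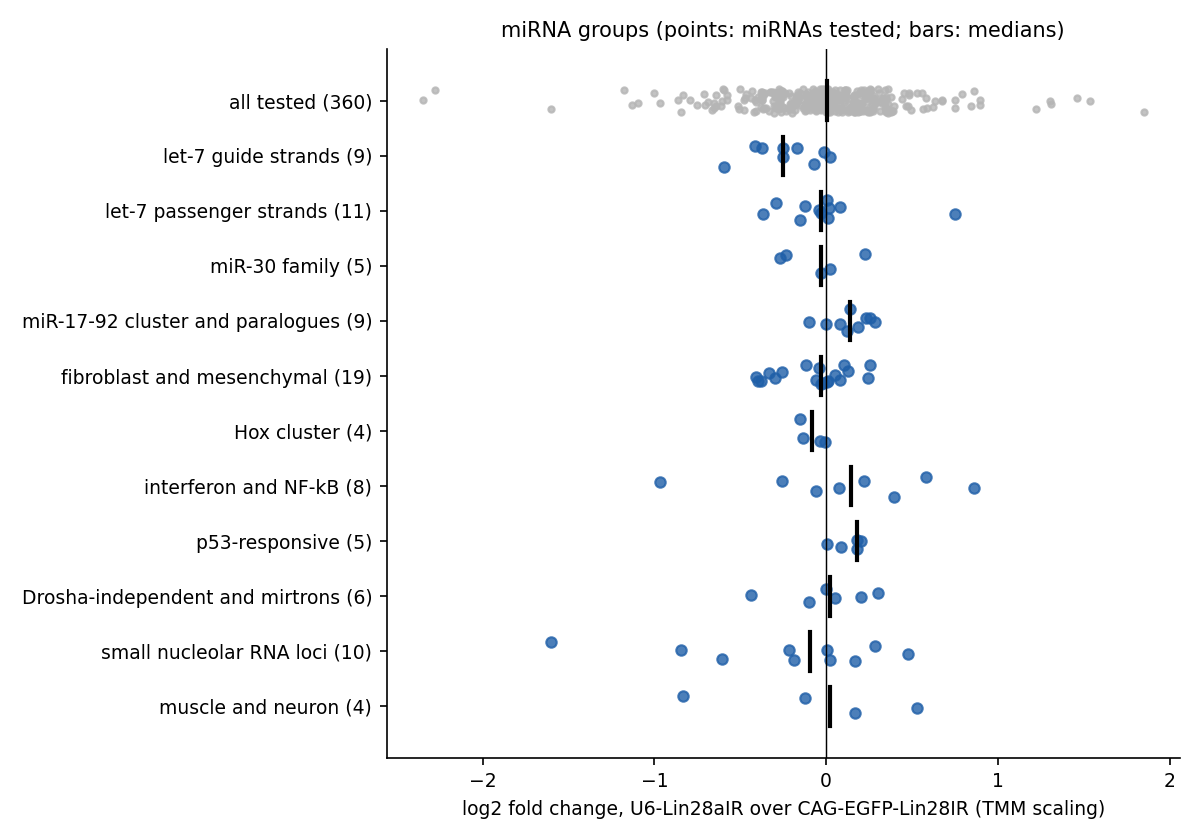
Log2 fold change of U6-Lin28aIR over CAG-EGFP-Lin28IR with TMM scaling (x axis) for all 360 miRNAs tested and for each group with at least 4 tested members (rows, number of miRNAs in brackets), with a point for each miRNA and a bar at the median. The let-7 guide strands sit around −0.25 and the p53-responsive miRNAs around 0.18, both within the spread of all miRNAs.

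The other groups stayed near the median of all miRNAs on the TMM scale, and outside the snoRNA loci none of their members passed that test. The miR-30 family, whose members share the seed GUAAACA, had a median of −0.03 over 5 members, and miR-30d-5p had 2340 and 2670 RPM with U6-Lin28aIR, against 1270 and 1269 RPM with CAG-EGFP-Lin28IR. Its relative miR-30c-5p differed less, at 1077 and 1482 RPM with U6-Lin28aIR against 1002 and 827 RPM with CAG-EGFP-Lin28IR, while miR-30a-5p had a log2 fold change of 0.02. All 9 tested members of the miR-17-92 cluster and its paralogues, which promote proliferation, were higher on the RPM scale in both U6-Lin28aIR libraries than in either CAG-EGFP-Lin28IR library. So were 78.9% of all miRNAs tested and 165 of the 184 at 10 RPM or more. The TMM median of the 9 members was 0.14. Among them miR-92a-3p had −0.10, miR-93-5p 0.08, miR-25-3p 0.14 and miR-20a-5p 0.19 with TMM.

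The 19 miRNAs of the fibroblast and mesenchymal list summed to 87949 and 104098 RPM with U6-Lin28aIR and 59351 and 46169 RPM with CAG-EGFP-Lin28IR. Their TMM median was −0.03, with miR-24-3p at −0.33 (SE 0.23), 2860 and 3460 RPM with U6-Lin28aIR against 2962 and 1824 RPM with CAG-EGFP-Lin28IR. From the Hox clusters, which give fibroblasts their positional identity, miR-10b-5p, miR-10a-5p, miR-196a-5p and miR-615-3p had log2 fold changes between −0.15 and 0.00. The p53-responsive miR-34 family had a median of 0.18 with TMM. All 5 of its mature forms rose past the threshold on the RPM scale, beside 141 of the 184 miRNAs at 10 RPM or more and 56.4% of all miRNAs. Its most abundant form, miR-34c-5p, had 973 and 1281 RPM with U6-Lin28aIR against 710 and 479 RPM with CAG-EGFP-Lin28IR, miR-34a-5p and miR-34c-3p had 0.20 and 0.18 with TMM, and miR-34b-3p 0.01.

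Double-stranded RNA can activate interferon and NF-κB signalling, so miRNAs that respond to them were listed. The 8 tested members had a median of 0.15 with TMM and 0 were called. The miRNA miR-155-5p, a marker of inflammatory activation, had 148 and 138 RPM with U6-Lin28aIR, against 107 and 97.7 RPM with CAG-EGFP-Lin28IR, and its log2 fold change was −0.26 with TMM (SE 0.19, adjusted p = 0.861). On the other side, miR-9-5p had 199 and 217 RPM with U6-Lin28aIR against 105 and 107 RPM with CAG-EGFP-Lin28IR, at 0.22 (SE 0.20, adjusted p = 0.880). The lowest member, miR-147-3p, chosen after its values were seen, had 3.80 and 2.98 RPM with U6-Lin28aIR against 4.77 and 3.20 RPM with CAG-EGFP-Lin28IR, with overlap, at −0.97 (SE 0.29, adjusted p = 0.205), and it too passed the test without U6-Lin28aIR replicate 1 and without one or the other CAG-EGFP-MosIR replicate. The list thus held members on both sides of the median. The 6 tested miRNAs that bypass Drosha, mirtrons among them, had a median of 0.02, with miR-320-3p at −0.10, miR-484 at 0.05, miR-877-3p at 0.00 and miR-877-5p at 0.20, and 0 were called.

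Markers of other cell types were low or absent, apart from miR-203-3p, miR-9-3p and miR-128-3p. All 14 miRNAs of the embryonic stem cell list had 0 counts in the 4 libraries. The blood and serum list summed to 2.05 to 3.64 RPM with U6-Lin28aIR and 1.32 to 3.20 RPM with CAG-EGFP-Lin28IR, of which miR-486a-5p was the largest part, and miR-451a, the red cell miRNA, had at most 3 counts in a library. In this list miR-122-5p, the liver miRNA, had 2 and 3 counts with U6-Lin28aIR and 12 and 4 counts with CAG-EGFP-Lin28IR. The epithelial list summed to 44.7 and 63.8 RPM with U6-Lin28aIR against 32.2 and 25.7 RPM with CAG-EGFP-Lin28IR, and its main member miR-203-3p had 43.3 and 61.2 RPM with U6-Lin28aIR against 30.6 and 24.7 RPM with CAG-EGFP-Lin28IR, whereas miR-200b-3p stayed below 1 RPM. The muscle and neuron list summed to 113 and 143 RPM with U6-Lin28aIR and 77.8 and 71.4 RPM with CAG-EGFP-Lin28IR. Most of this came from miR-9-3p and miR-128-3p. The former is the other arm of miR-9-5p in the interferon and NF-κB list, so for miR-9 these lists are not separate readings. Its level was 57.4 and 76.9 RPM with U6-Lin28aIR against 38.2 and 32.8 RPM with CAG-EGFP-Lin28IR. For miR-128-3p the values were 53.4 and 63.6 RPM with U6-Lin28aIR against 38.2 and 37.5 RPM with CAG-EGFP-Lin28IR. In contrast, miR-124-3p was below 1 RPM in all 4 libraries, and miR-206-3p exceeded 1 RPM only in U6-Lin28aIR replicate 1, with 1.01 RPM. The sums of the epithelial list and of the muscle and neuron list were higher with U6-Lin28aIR on the RPM scale, as those of miRNAs at large were, and the part of other cells in them was not tested.

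The arms of a precursor gave a further reading of the same libraries. In 50 precursors with both arms at 10 RPM or more, the minor arm had a higher TMM log2 fold change than the major arm in 24, with a median difference of −0.01 and an SD of 0.32. The log2 fold changes of the arms had a Pearson's r of 0.13 across the 50 precursors. Across the 184 miRNAs at 10 RPM or more the log2 fold change with TMM had a Spearman's rho of −0.22 with abundance. With the length of the listed mature form it had a rho of 0.02, so none of length, base composition and abundance ordered the miRNAs closely.

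The same contrast of promoters was available in separate libraries with the Mos hairpin. There the median log2 fold change on the RPM scale was 0.27, beside 0.75 for the Lin28 plasmids, and 154 of 360 miRNAs (42.8%) were higher in both U6-MosIR libraries than in either CAG-EGFP-MosIR library and 14 (3.89%) lower. Counts on mature miRNAs came to 18.7% of the perfectly mapped reads in both U6-MosIR libraries, against 13.2% and 16.5% with CAG-EGFP-MosIR. The rise of the Lin28 pair exceeded that of the Mos pair by 0.46 on the log2 RPM scale at the median, but for no single miRNA did the difference between the hairpins pass the test on that scale (smallest adjusted p = 0.402 of 360, 36 with an unadjusted p below 0.05). With the 18–30-nt reads as library size the median log2 fold changes were 0.38 for the Lin28 and 0.24 for the Mos plasmids. The median difference between the hairpins was then 0.10, so its size depended on the scale. With TMM, 0 miRNAs passed for the Mos hairpin (9 rises and 9 falls with an unadjusted p below 0.05) and 0 for the difference between the hairpins (2 and 11 with an unadjusted p below 0.05), while DESeq2 called 1 fall, miR-5126, for the Mos hairpin. Without CAG-EGFP-MosIR replicate 1 these counts were 8 for the Mos hairpin and 3 for the difference between the hairpins, namely miR-32-5p, miR-374b-5p and miR-5121, and without one or the other U6-Lin28aIR replicate the Mos count was 1, miR-5126. Across the 184 miRNAs the log2 fold changes of the 2 hairpins had a Pearson's r of 0.54 and a Spearman's rho of 0.49. Without miR-3535 and miR-5126 these were 0.45 and 0.48. Both were above 0 for 66 miRNAs, both below 0 for 56, and 62 had opposite signs. The pairs share no library, but neighbouring miRNAs are not independent points, and no p is given.

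**Figure D5:**
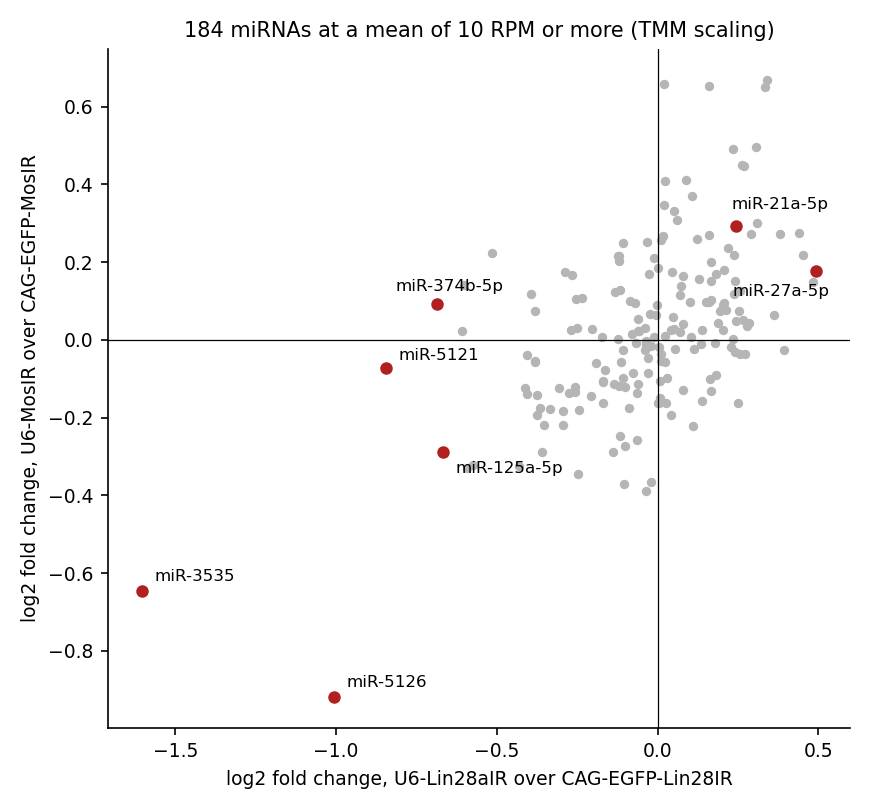
Log2 fold change with TMM of U6-MosIR over CAG-EGFP-MosIR (y axis) against that of U6-Lin28aIR over CAG-EGFP-Lin28IR (x axis) for the 184 miRNAs with a mean of at least 10 RPM in the Lin28 libraries. The points run from lower left to upper right (Pearson's r 0.54), with miR-3535 and miR-5126 at the low end of both axes.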

How the data were processed

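Total RNA of transfected 3T3 cells was made into libraries with a kit that adds 4 random bases at each end, and sequenced on an Illumina HiSeq. The authors trimmed the reads, mapped them with STAR 2.5.3a (named in the submitters' processing notes with mm10) to the mouse genome with the plasmid sequences added, allowing 2 mismatches and any number of mapping positions, with miRNA positions from miRBase. They deposited raw counts per mature miRNA locus with 0, 1 or 2 mismatches and the numbers of mapped reads per library. The rule by which reads were counted on an miRNA was not stated. The dose was 2 μg of plasmid in 6-well plates by the paper's methods but 250 ng in 24-well plates by the labels.

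Of several loci of a mature name, the one with most counts in all 8 libraries stood for it. R 4.3.3 with edgeR 4.0.16 tested the counts without mismatches (quasi-likelihood, robust, TMM on summed miRNA counts, filterByExpr) in 1 fit of the 4 plasmids, Benjamini-Hochberg adjusted over 360 miRNAs at 0.05. The test was checked on simulated data. SEs are the log2 fold change over the root of F. RPM-scale tests used the deposited read totals without TMM. Alternatives were DESeq2 1.42.0, other library sizes, filters and mismatch limits, a replicate block, no robust estimation, the 4 libraries alone, summed loci, and each library left out. Named miRNAs were those called, the 10 most abundant, the 6 largest rises and falls at 10 RPM or more, up to 4 of each list, and 3 the paper names. Members and lists were chosen with earlier results of these data known. Floors (3 counts) cover counting error only, while SEs and the intervals made from them include the spread between wells. Positions are GRCm38, genes GENCODE M21. Hairpin siRNAs were not analysed here.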

Additional observations from a re-analysis of the deposited data

Results flagged for a closer look

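Of the named miRNAs, 2 had log2 fold changes of opposite sign with the Lin28 and the Mos hairpin, with the libraries of a pair separated in both on the TMM scale. For the mirtron product miR-877-5p the log2 fold change with TMM was 0.20 between the Lin28 plasmids and −1.05 between the Mos plasmids, each as U6 over CAG-EGFP, at 30 and 41 counts with U6-Lin28aIR and 20 and 19 with CAG-EGFP-Lin28IR. For the neuronal miR-124-3p the values were −0.83 and 1.71, at 4 and 13 counts with U6-Lin28aIR and 11 and 8 with CAG-EGFP-Lin28IR. On the RPM scale its Lin28 libraries overlapped, at a log2 fold change of −0.08. With U6-MosIR miR-124-3p had 0.431 and 0.994 RPM, against 0.141 and 0.204 RPM with CAG-EGFP-MosIR. The CAG-EGFP-MosIR values are no higher than the 0.211 and 0.204 RPM that 3 counts correspond to in those libraries. Neither miRNA passed edgeR's test with either hairpin, and neither difference between the hairpins did (adjusted p = 0.994 for both).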

How the results depend on the processing

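The shares of miRNA counts, 18–30-nt reads and 21–23-nt reads differed between U6-Lin28aIR and CAG-EGFP-Lin28IR in the same direction under each alternative run on them (1 or 2 mismatches, each library left out and, for miRNA counts, summed loci). The call of miR-3535 was kept under each alternative, whereas the number of miRNAs called with the Lin28 hairpin, 2 with TMM, depended on the scaling. It was 204 (203 rises, 1 fall) with the deposited library sizes, 7 (6 rises, 1 fall) with the 18–30-nt reads as library size, 4 with 2 mismatches, 5 in the 4 libraries alone and 1 to 13 with a library left out, lowest without one or the other CAG-EGFP-Lin28IR replicate and highest without CAG-EGFP-MosIR replicate 1. For the Mos hairpin, with 0 called in edgeR, the number was 1 with DESeq2, without the filter on low counts and at 10 RPM or more (miR-5126 each time), 5 with the 18–30-nt reads as library size and 0 to 8 with a library left out, highest without CAG-EGFP-MosIR replicate 1. The difference between the hairpins, with 0 called, gave 0 to 3 with a library left out, highest without the same library. The cause was not tested. The call of miR-5126 was lost with the deposited and with the 18–30-nt library sizes. In the 4 libraries alone the calls were falls of miR-3535, miR-5126, miR-5121, miR-125a-5p and miR-193a-3p. The last, chosen after its values were seen, had 5.74 and 8.28 RPM with U6-Lin28aIR against 10.9 and 7.09 RPM with CAG-EGFP-Lin28IR. With all 8 libraries its log2 fold change was −1.10 with TMM (SE 0.28, edgeR adjusted p = 0.0974), and it passed without the filter on low counts. A replicate block (the replicate numbers as a term of the fit) gave 2 calls for the Lin28 hairpin, miR-3535 and miR-5126 as without it, 0 for the Mos hairpin and 0 for the difference. The replicate deviations (replicate 1 minus replicate 2) of U6-Lin28aIR and CAG-EGFP-Lin28IR had a correlation of 0.15 across 360 miRNAs. With only 2 replicate numbers this does not show that the numbers pair the wells.

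Some of the named miRNAs that did not pass the test changed the sign of their log2 fold change relative to the median. With the deposited library sizes the values were −0.0073 for miR-31-5p and 0.00 for miR-10a-5p, with the 18–30-nt reads as library size −0.0029 for let-7c-2-3p and 0.00 for let-7a-1-3p, with 1 and 2 mismatches −0.00038 and −0.0020 for miR-34b-3p, with DESeq2 0.0011 for miR-877-3p and with the replicate block −0.0057 for miR-98-5p. With a library left out miR-5126, which had passed the test, kept its sign, at −1.22 to −0.82. The values of miRNAs that had not passed and changed sign ran as follows: let-7f-5p −0.12 to 0.074, miR-31-5p −0.21 to 0.23, miR-125b-5p −0.16 to 0.018, let-7g-5p −0.20 to 0.062, miR-29a-3p −0.12 to 0.041, miR-30e-5p −0.28 to 0.19, let-7c-2-3p −0.23 to 0.23, let-7a-1-3p −0.23 to 0.24, let-7i-3p −0.47 to 0.15, miR-30a-5p −0.11 to 0.15, miR-25-3p −0.11 to 0.36, miR-93-5p −0.0078 to 0.12, miR-10b-5p −0.18 to 0.059, miR-10a-5p −0.16 to 0.11, miR-196a-5p −0.29 to 0.0053, miR-34b-3p −0.077 to 0.091, miR-320-3p −0.43 to 0.17, miR-484 −0.012 to 0.11, miR-877-3p −0.45 to 0.38, miR-1839-5p −0.021 to 0.046, miR-486a-5p −0.77 to 0.53, miR-206-3p −0.51 to 1.24, miR-200b-3p −0.15 to 0.15 and miR-98-5p −0.23 to 0.24. The change of scaling accounts by construction for the shift of all miRNAs by 0.75 on the log2 scale, and with 2 libraries a group and no measure of miRNA per cell the common rise has no test of its own.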
